A study of Mus musculus with 20 samples.

Results

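The 10 genes described here direct the formation of skeletal muscle or mark its embryonic stage. They are the paired-box factors Pax3 and Pax7, the 4 myogenic basic helix-loop-helix factors Myf5, Myod1, Myf6 and Myog, the partner factor Mef2c, the fetal acetylcholine receptor subunit Chrng, and the embryonic and neonatal myosin heavy chains Myh3 and Myh8. They were chosen by symbol, and all 10 were found among the 51826 genes of the count table. RNA was sequenced from 6 primary mouse sarcomas, numbered 1 to 6, and from 14 lung metastases, each matched by its title with 1 of those tumours. A primary tumour with its metastases is called a matched set: there were 4 metastases in set 1, 4 in set 2, 2 in set 3, 1 in set 4, 1 in set 5 and 2 in set 6. Names such as 2-3 give the set and then the number of the metastasis, and 5-x had no number. All samples carry the same genotype label, a mixed background; the labels give no driver mutation, treatment, age, sex, tumour site or time, and do not say which samples came from separate animals. P-values therefore measure the spread between these samples, part of which may be technical. The design compares metastases with their primary tumours, and the members were read beside Ckm, the creatine kinase of mature muscle fibres.

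In the embryo, Pax3 and Pax7 mark muscle progenitors, and Pax7 also marks the satellite cells of adult muscle. Myf5 and Myod1 commit cells to the muscle lineage, Myog, Myf6 and Mef2c drive their differentiation, and Myh3, Myh8 and Chrng are among the proteins made before adult isoforms replace them. Tumours of the rhabdomyosarcoma type are known for expressing Myod1 and Myog, while mature fibres in a sample are known by genes such as Ckm.

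Libraries held 20603620 to 36824370 counts. Primary tumours 4 and 6 stood apart from the other 4 primary tumours. Their summed level of 10 endothelial markers was 2.57 and 5.62 CPM (counts scaled to a common library total), against 299 to 646 CPM in the others, and their summed level of 22 mature skeletal muscle genes was 46.1 and 16.2 CPM, against 5104 to 9922 CPM. Pecam1, a defining endothelial marker, was present in the metastases at 101 ± 104 CPM (SD, n = 14). The lung epithelium markers summed to 94.8 to 13417 CPM in the metastases and 0.909 to 181 CPM in the primary tumours, lowest among metastases in 2-3. Metastases 6-1 and 6-2 were the most alike (r = 0.996 over genes). Their counts differed beyond sampling noise (chi-square divided by its degrees of freedom, 29.3), which cannot tell separate metastases from 2 libraries of 1. Their titles number them separately, and both were kept.

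To show the regulatory sequence in front of members that rose and fell together across libraries, and of Myf5, the bases from 220 to 21 before the RefSeq start of 5 genes are printed 5′ to 3′ on the gene's strand (RefSeq, GRCm38.p6). Capitals mark CANNTG, the E-box that myogenic helix-loop-helix factors bind, and the MEF2 consensus YTAWWWWTAR (Y is C or T, W is A or T, R is A or G). Only full matches are marked. Near matches that differ in the last base, such as ctatatttat in the Myog window and ctatatatac in the Myh3 window, stay in small letters. E-boxes of the form CAGCTG are also counted among CANNTG, both strands were searched, and the MEF2 match overlaps no E-box. The log2 CPM of Chrng, Myog, Myh3 and Myh8 had an r of 0.918 to 0.979 with each other over the 20 libraries and 0.939 to 0.983 over the 14 metastases. Myf5 had an r of 0.296 to 0.487 with these 4 over the 20 libraries and 0.642 to 0.730 over the metastases. The libraries share source tumours, so these values carry no test.
Chrng: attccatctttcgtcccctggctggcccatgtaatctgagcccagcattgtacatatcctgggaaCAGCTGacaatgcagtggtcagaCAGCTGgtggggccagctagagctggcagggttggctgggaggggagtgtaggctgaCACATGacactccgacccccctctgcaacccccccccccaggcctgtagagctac
Myog: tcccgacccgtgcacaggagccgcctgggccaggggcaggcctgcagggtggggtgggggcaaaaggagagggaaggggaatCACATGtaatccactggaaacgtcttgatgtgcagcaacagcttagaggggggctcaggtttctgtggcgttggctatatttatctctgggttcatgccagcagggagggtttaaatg
Myh3: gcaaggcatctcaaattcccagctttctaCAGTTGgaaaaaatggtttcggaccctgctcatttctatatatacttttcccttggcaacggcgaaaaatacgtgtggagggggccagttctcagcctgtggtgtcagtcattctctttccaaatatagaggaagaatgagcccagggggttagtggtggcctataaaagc
Myh8: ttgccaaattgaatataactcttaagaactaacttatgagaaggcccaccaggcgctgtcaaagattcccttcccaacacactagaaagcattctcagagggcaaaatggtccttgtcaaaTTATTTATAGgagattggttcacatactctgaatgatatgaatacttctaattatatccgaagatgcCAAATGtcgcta
Myf5: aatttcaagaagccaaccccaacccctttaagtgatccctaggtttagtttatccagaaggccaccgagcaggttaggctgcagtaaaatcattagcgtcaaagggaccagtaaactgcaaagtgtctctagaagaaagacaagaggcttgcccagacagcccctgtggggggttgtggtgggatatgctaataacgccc
The Chrng window (chr1:87205591-87205790, plus strand) holds 3 E-boxes, 2 of them CAGCTG. It lies in an intron of a longer GENCODE transcript of Chrng and outside all annotated exons. Myog (chr1:134289784-134289983, plus strand), Myh3 (chr11:67078080-67078279, plus strand) and Myh8 (chr11:67276904-67277103, plus strand) hold 1 E-box each, and Myh8 also holds 1 MEF2 match. The Myf5 window (chr10:107486155-107486354, minus strand) holds neither. Of 32851 windows of the same kind over all genes, 58.6% hold CANNTG, 10.6% hold CAGCTG and 2.36% hold the MEF2 consensus, so a single E-box is common. These matches describe letters only. RefSeq promoter entries were matched for 7 of the 10 members and not for Myod1, Myf6 and Pax3.

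**Figure D1:**
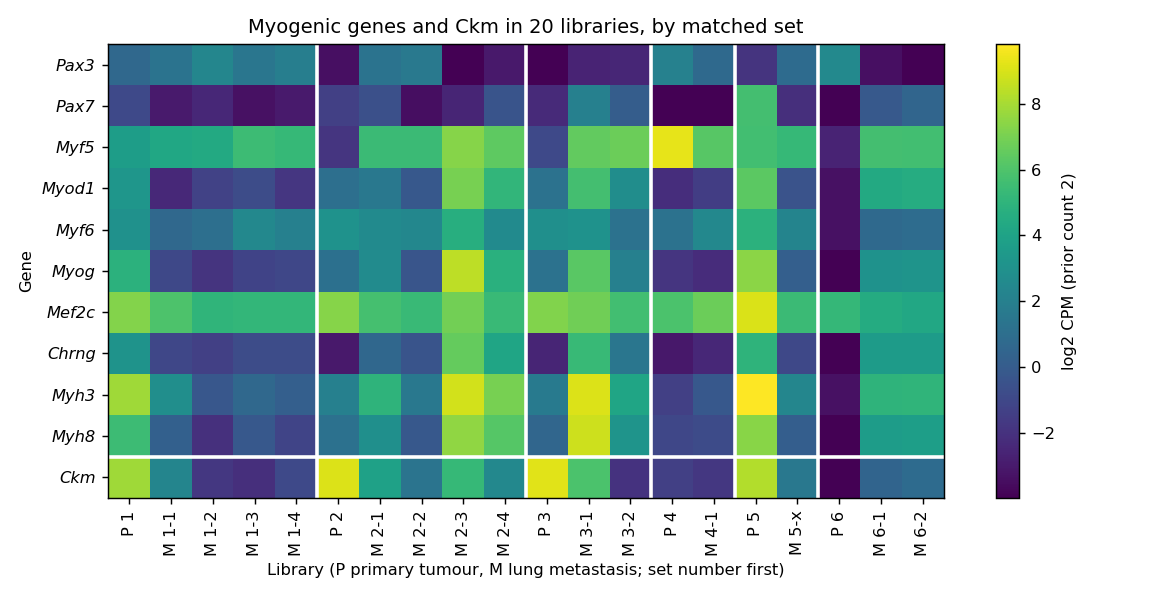
Level of the 10 members and of Ckm in each library, as log2 CPM with a prior count of 2 on the colour scale. Columns are libraries grouped by matched set (P primary tumour, M metastasis) and rows are genes. Myf5 is above 4 in all 14 metastases, while Myod1, Myog, Chrng, Myh3 and Myh8 are bright together in 2-3, 2-4, 3-1 and primary tumour 5. The same genes lie between 3.08 (Myog in 6-1) and 7.82 (Myh3 in primary tumour 1) in primary tumour 1 and metastases 6-1 and 6-2.

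Pax3, the progenitor factor on chromosome 1 (78101267 to 78197134, GRCm38, minus strand), was low throughout. It was measured at 0, 0.891 and 5.65 CPM (lowest, median, highest) in the 6 primary tumours and at 0, 1.67 and 4.98 CPM in the 14 metastases. It was listed at 0 counts in primary tumour 3 and in metastases 2-3 and 6-2, which allows up to 0.0815, 0.107 and 0.0890 CPM (3 counts, counting error only). Pax3 was highest in primary tumour 6, whose own metastases held 1 and 0 counts, and the groups overlapped. Pax7, the satellite cell factor on chromosome 4 (139737062 to 139833528, minus strand), ran 0, 0.234 and 51.3 CPM in primary tumours and 0, 0.143 and 3.97 CPM in metastases. Primary tumour 5 alone held more than 4 CPM, and in 8 of the 20 libraries Pax7 rested on 3 or fewer counts.

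Myf5, the earliest of the helix-loop-helix factors, lies on chromosome 10 from 107482908 to 107486134 (minus strand), 6718 bases from Myf6. It ran 19.2, 47.4 and 159.8 CPM (lowest, median, highest) in the metastases, and it spread least among them, apart from Mef2c. The SD of its log2 CPM was 0.85 over the 14 metastases and 4.77 over the 6 primary tumours. Primary tumours 1 to 6 held 12.8, 0.211, 0.462, 629, 50.0 and 0.101 CPM. Tumours 2, 3 and 6 thus held 7, 17 and 3 counts, tumour 4 was far above every metastasis, and only tumour 5 fell inside the range of the metastases. Myf5 was higher than in its own primary tumour in 12 of 14 metastases, the exceptions being 4-1 (75.1 CPM) and 5-x (37.8 CPM).

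Myod1, the other determination factor (chromosome 7, 46376474 to 46379099, plus strand), did not share that evenness. It ran 0.0336, 2.18 and 80.8 CPM in primary tumours and 0.129, 1.87 and 128 CPM in metastases, with an SD of log2 CPM of 3.54 and 3.21. In set 1 the primary tumour held 9.75 CPM and its metastases 0.129, 0.358, 0.516 and 0.229 CPM. In set 2 the primary tumour held 2.05 CPM and its metastases 2.91, 0.83, 128 and 34.9 CPM. All 4 metastases of set 1 were below their tumour, whereas those of set 2 lay on both sides of theirs. In set 3 the values were 2.31 CPM in the tumour and 50.9 and 6.94 in the metastases, and in set 6 they were 0.0336 CPM (1 count) and 20.9 and 23.4. Sets 4 (0.160 and 0.297 CPM) and 5 (80.8 and 0.664 CPM) had 1 metastasis each. The sets therefore differed in direction: Myod1 was higher in 8 of 14 metastases than in their own tumour and lower in 6.

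Myog, the differentiation factor on chromosome 1 (134289989 to 134292548, plus strand), followed the same libraries, at 0, 2.20 and 168 CPM in primary tumours and 0.148, 2.61 and 352 CPM in metastases. It was highest in metastasis 2-3 and in primary tumour 5, below 0.5 CPM in all 4 metastases of set 1, and listed at 0 in primary tumour 6 (up to 0.101 CPM). Myf6, also called Mrf4 and the factor most typical of adult fibres (chromosome 10, 107492853 to 107494737, minus strand), moved within a narrower range, at 0.0336, 7.68 and 29.5 CPM in primary tumours and 1.55, 4.94 and 25.9 CPM in metastases. Metastasis 2-3 and primary tumour 5 were again the highest of their groups. Mef2c (chromosome 13, 83504034 to 83667080, plus strand), a MADS-box factor that cooperates with the helix-loop-helix factors and is also expressed in endothelial cells, B cells and heart, was present everywhere, at 37.2, 149 and 521 CPM in primary tumours and 19.5, 42.1 and 117 CPM in metastases. It was below the level of its own primary tumour in 13 of 14 metastases, and only 4-1 (105 CPM against 60.8) was above.

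The products of early muscle followed Myog. Chrng, the subunit that adult receptors replace (chromosome 1, 87204657 to 87212694, plus strand), ran 0, 0.0846 and 31.4 CPM in primary tumours and 0.119, 1.11 and 94.0 CPM in metastases. Myh3 (chromosome 11, 67078300 to 67102291, plus strand) ran 0.0336, 3.59 and 897 CPM in primary tumours and 0.805, 12.2 and 546 CPM in metastases. Myh8, in the same myosin cluster (67277124 to 67308634, plus strand), ran 0, 1.82 and 164 CPM and 0.179, 4.28 and 439 CPM. Metastases 2-3, 2-4 and 3-1 held the 3 highest levels of each of these genes among the metastases, and primary tumours 5 and 1 the 2 highest among the primary tumours, so the groups overlapped. Myosin heavy chain genes are near-identical in parts, so reads shared between Myh3, Myh8 and their neighbours may have been split in ways that cannot be told.

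Set per length of annotated exon, which allows levels of different genes to be compared, the members kept different places in the 2 groups. By median CPM per kilobase over the metastases, Myf5 led at 22.7, followed by Myf6 (3.91), Mef2c (2.68), Myh3 (2.02), Myog (1.75) and Myod1 (1.00). Ckm (0.727), Myh8 (0.364), Pax3 (0.270), Chrng (0.266) and Pax7 (0.0243) came after them. Over the primary tumours Ckm led at 90.6 CPM per kilobase, followed by Mef2c (9.51), Myf6 (6.08), Myf5 (3.18), Myog (1.47), Myod1 (1.17) and Myh3 (0.593). Myh8 (0.155), Pax3 (0.144), Pax7 (0.0399) and Chrng (0.0203) were last. The ranges over libraries of all neighbours in both orders overlapped, but ranges leave out that the genes were measured in the same libraries. Within each metastasis Myf5 stood above Myf6, for example at 9.21 against 1.22 in 1-1 and 76.7 against 20.5 in 2-3. The order of the other neighbours within libraries was not counted.

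Between metastases and their primary tumours, 0 of the 10 members rose and 1, Mef2c, fell (edgeR quasi-likelihood test with the matched set as a block, Benjamini-Hochberg adjusted p under 0.05). Over all 18452 genes tested, 7.34% rose and 6.44% fell. The same single member had an unadjusted p under 0.05, as did 28.8% of all genes tested. DESeq2 called 2 members, Mef2c and Myf5, and 22.6% of all genes, and limma voom called 1 member and 15.8%. The median log2 fold change of the members was -1.16, against -0.00032 over all genes tested. Several of these estimates changed sign when each set's difference was averaged over the 6 sets. Myod1 (0.36), Myf6 (0.10), Myh3 (0.62), Myh8 (0.46) and Chrng (1.63) then lay above 0. Myog (-0.15), Pax7 (-0.44) and Mef2c (-1.33) stayed below 0. Mef2c fell by 1.30 ± 0.365 on the log2 scale (SE, adjusted p = 0.0269, lower in 5 of 6 sets). Ckm fell by 5.12 ± 1.23 (SE, adjusted p = 0.0130, lower in 5 of 6 sets), from 274 ± 250 CPM (SD, n = 6) to 9.45 ± 17.6 CPM (SD, n = 14).

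The helix-loop-helix factors did not pass the test in either direction. Myf5 had the estimate farthest above 0, with a log2 fold change of 2.80 ± 1.52 (SE, edgeR adjusted p = 0.239), and by DESeq2 it was 2.84 (adjusted p = 0.00616). Myod1 (-1.49 ± 2.16), Myog (-2.84 ± 2.61) and Myf6 (-0.15 ± 0.685) had adjusted p of 0.697, 0.514 and 0.915. The sets moved in opposite directions for Myod1 and Myog. Without the block for the matched set Pax7 also passed, with an estimate of -3.75 (adjusted p = 0.0497), as did 13.5% of all genes. Pax7 (-0.51 ± 1.38), Pax3 (0.33 ± 1.63), Myh3 (-2.63 ± 2.96), Myh8 (-2.46 ± 2.68) and Chrng (-1.02 ± 2.38) had adjusted p of 0.591 to 0.921. Without set 1 Ckm did not pass (-4.04, adjusted p = 0.122), and the estimates of Myod1 (3.32), Myog (3.64), Myh3 (4.71), Myh8 (4.34) and Chrng (6.51) were above 0. In that fit 0 of the 10 members passed by edgeR, while 999 of 18329 genes tested did. Without sets 4 and 6, Mef2c fell by 1.79 (adjusted p = 0.0153) and Ckm by 6.08 (adjusted p = 0.00510). Pax3 then had an estimate of 2.52 (adjusted p = 0.193), and 1 member passed of the 10, against 9.84% of all genes.

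The call of Mef2c rested on several sets. It did not pass without set 1 (-1.15, adjusted p = 0.179), without set 2 (-1.29, adjusted p = 0.100) or without set 6 (-1.40, adjusted p = 0.0594), nor with the metastases of each set summed (-1.26, adjusted p = 0.271). Other genes of the cell types that also express Mef2c were measured beside it. Of the 10 endothelial markers 0 passed by edgeR (1 at an unadjusted p under 0.05, 2 by DESeq2 and 0 by limma voom), and their sum ran 2.57 to 646 CPM in primary tumours and 162 to 2731 CPM in metastases. Of the 8 B cell markers 0 passed by edgeR (3 at an unadjusted p under 0.05, 3 by DESeq2 and 1 by limma voom), with sums of 0.269 to 52.2 and 4.03 to 178 CPM. Of the 22 mature skeletal muscle genes 13 fell. With the mean log2 CPM of those 22 genes as a covariate, the difference in Mef2c was -0.68 (adjusted p = 0.132). The part of endothelial and B cells in it was not tested. In bulk tissue, fewer cells of a type and less RNA per cell cannot be told apart.

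**Figure D2:**
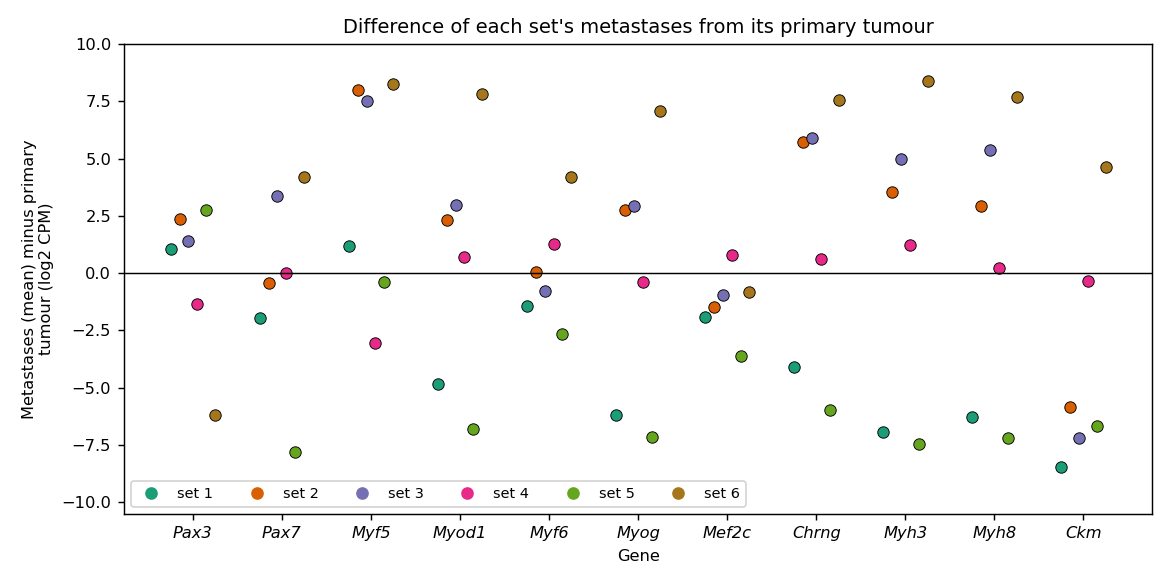
Difference in log2 CPM (prior count 2) between the mean of a set's metastases and its primary tumour, 1 point per matched set, for the 10 members and Ckm. Myod1, Myog, Chrng, Myh3 and Myh8 lie below 0 in sets 1 and 5 and above 0 in sets 2, 3 and 6. The size of the set 6 points depends on the prior count, since primary tumour 6 held 3 or fewer counts of all members other than Pax3 and Mef2c.

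Read against Ckm, the primary tumours differed widely. Ckm was 229, 539, 574 and 299 CPM in primary tumours 1, 2, 3 and 5, while tumours 4 and 6 held 6 and 0 counts. Primary tumours 2 and 3 held the most Ckm. They had 160 and 146 CPM of Mef2c and 8.28 and 7.45 CPM of Myf6, but 0.211 to 2.31 CPM of Myod1, Myog and Myf5. The ratio of Myod1 to Ckm, each per length, was 0.00596 and 0.00630 there, against 0.0668 in tumour 1 and 0.422 in tumour 5. The same ratio was 0.0415 to 55.4 over the 14 metastases with a median of 2.15, and 11 of them exceeded all 4 of those tumours. For Myf5 the ratio was 0.000548 to 0.234 in those 4 tumours and 2.11 to 746 in the metastases (median 32.0), so that all 14 metastases exceeded those 4 tumours. Primary tumour 4, with its 6 Ckm counts, had a Myf5 ratio of 2742, above all 14 metastases.

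The other members differed in how far the metastases stood above those 4 tumours. The ratio to Ckm exceeded that of primary tumours 1, 2, 3 and 5 in 14 of 14 metastases for Myf6 and Mef2c, in 12 for Chrng, in 11 for Pax3, in 10 for Myog and Myh8, in 9 for Myh3 and in 5 for Pax7. For Pax7 the median of the metastases (0.0486) was below primary tumour 5 (0.0853). Primary tumour 4 had a ratio of 35.2 for Mef2c, above 11 metastases, 16.1 for Myf6, above 9, and 6.12 for Pax3, above 12. For the other 6 members its ratio, 0 to 1.30, was above 0 to 6 metastases. Several of these ratios rest on few Ckm counts, which were 5, 5, 8 and 8 in metastases 1-3, 3-2, 1-2 and 4-1. Metastasis 2-3, with 1078 Ckm counts, is better measured: its ratio was 5.25 for Myod1, 17.9 for Myog, 5.80 for Myh3 and 1.72 for Chrng. Since Ckm itself fell in the metastases, a higher ratio is not by itself a higher level of a member.

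**Figure D3:**
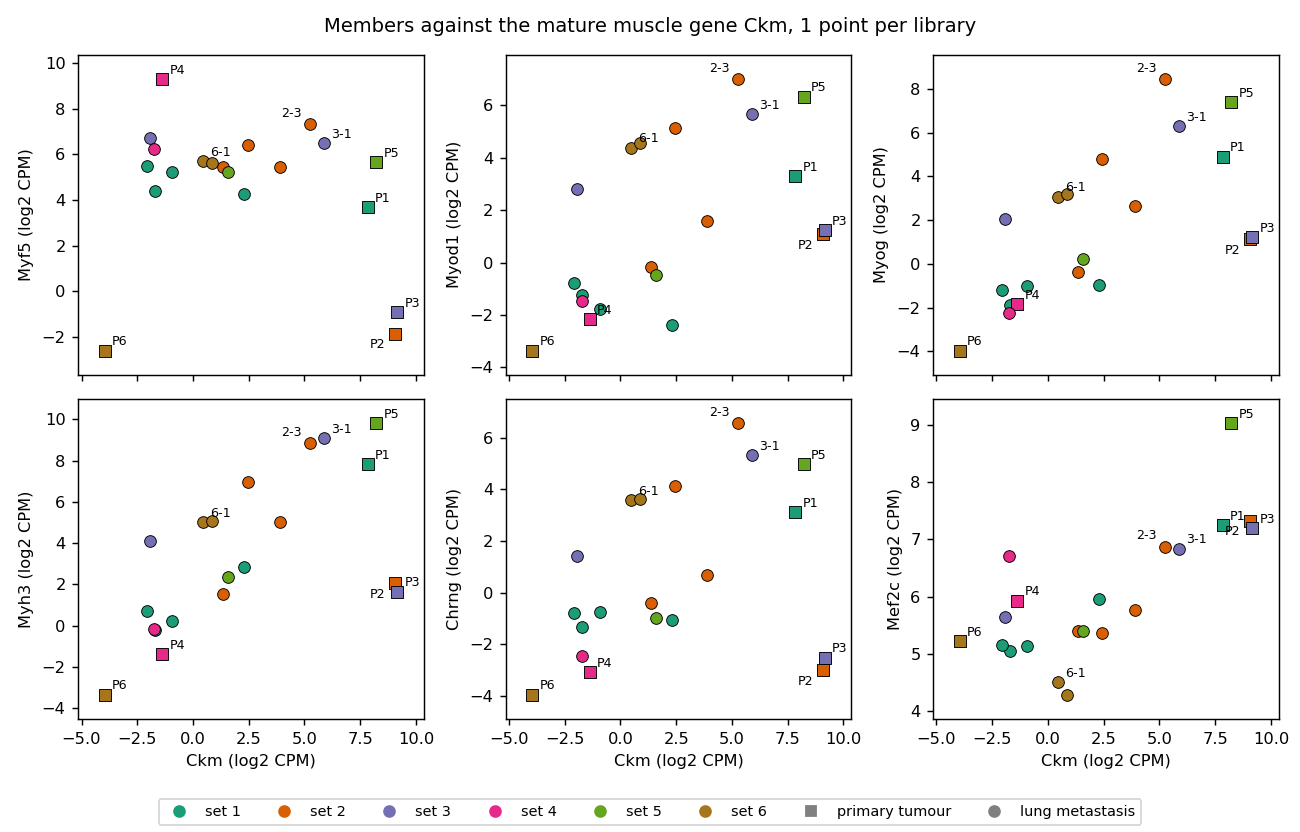
Log2 CPM of 6 members (vertical axes) against log2 CPM of Ckm (horizontal axes), 1 point per library, with squares for primary tumours and circles for metastases, coloured by matched set. Primary tumours 2 and 3 (539 and 574 CPM of Ckm) lie at the lower right for Myf5 and Chrng, and metastases 6-1 and 6-2 hold over 20 CPM of Myod1 at 1.30 and 1.75 CPM of Ckm.

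With the log2 CPM of Ckm added as a covariate to the fit of metastases against primary tumours, 0 of the 10 members rose and 0 fell (edgeR), while 15.9% of the 18451 genes tested rose and 12.1% fell. At an unadjusted p under 0.05 there was 1 member, Myf6, against 41% of all genes. No other tool was run on this fit. Ckm was 229 to 574 CPM in primary tumours 1, 2, 3 and 5 and at most 59.2 CPM in the metastases. In those sets no metastasis reached the Ckm level of a primary tumour, so equal Ckm lies outside the measured levels there. The median difference of the members was 2.44, against 0.09 over all genes tested. Myf6 came nearest to the threshold at 1.75 (adjusted p = 0.0675), followed in size of estimate by Chrng (3.93), Myf5 (3.86), Myod1 (2.90), Myh3 (2.55), Myh8 (2.45), Myog (2.43) and Pax7 (1.85), with adjusted p of 0.192 to 0.440. Pax3 (-2.31) and Mef2c (-0.69) had estimates below 0. With the mature muscle index in place of Ckm, Myf6 passed (1.81, adjusted p = 0.0236) with 28% of all genes, and without the block Chrng (4.49, adjusted p = 0.0344) and Myh8 (3.76, adjusted p = 0.0484) did, with 28.9%. Leaving out set 1 or set 5, Myf6 passed (adjusted p = 0.0405 and 0.0335; 17.6% and 27.6% of all genes), and leaving out set 4, whose primary tumour held 629 CPM of Myf5, Myf5 did (5.48, adjusted p = 0.0400; 21.5% of all genes). Without sets 4 and 6, an alternative chosen after seeing the data, the genes called fell from 5165 to 576 (3.06%), no member passed, and Pax3 changed sign to 1.62 (adjusted p = 0.727).

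Whether metastases of different primary tumours differed in the members was tested among the 12 metastases of sets 1, 2, 3 and 6. By edgeR 0 of the 10 members passed, and 0.321% of 19919 genes did. All 10 members had an unadjusted p under 0.05, with adjusted p from 0.0671 (Pax7) to 0.134 (Myf6), and so did 29.5% of all genes. DESeq2 called all 10 and 24.5% of all genes. In the metastases of set 1 Pax3 was 2.35, 4.98, 2.68 and 3.73 CPM, and in those of sets 3 and 6 it was 0.0991, 0.118, 0.0318 and 0 CPM. These values did not overlap, and set 2 held both kinds, with 2.35 and 2.96 CPM in metastases 2-1 and 2-2 and 0 and 0.0601 CPM in 2-3 and 2-4. The latter pair also had the lower sums of lung epithelium markers, 94.8 and 448 CPM against 3772 and 4483 CPM, and the part of those cells in the difference within set 2 was not tested. Once the mean log2 CPM of the lung epithelium markers was a covariate, 4 members passed by edgeR: Myod1 (adjusted p = 0.0235), Pax3 (0.0265), Pax7 (0.0340) and Myh8 (0.0405), while 12.1% of all genes did. The count depended on single libraries: without metastasis 3-1 the members Myog, Myod1, Myh8, Myh3 and Chrng passed (adjusted p = 0.0329 to 0.0496) with 26.6% of all genes, and without 2-4 Pax7 did (0.0402) with 6.02%.

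Across the metastases Pax3 and Myod1 were seldom found together. The 6 metastases with more than 5 CPM of Myod1 (2-3, 2-4, 3-1, 3-2, 6-1 and 6-2) held 0 to 0.118 CPM of Pax3. The 8 others held 0.129 to 2.91 CPM of Myod1 and 1.60 to 4.98 CPM of Pax3. Myog overlapped between these libraries (4.12 to 352 and 0.148 to 6.25 CPM), and Chrng did not (2.63 to 94.0 and 0.119 to 1.52 CPM). The same 6 metastases had the lower sums of lung epithelium markers, 94.8 to 957 CPM against 1040 to 13417 CPM in the 8 others. Smooth muscle and pericyte markers also summed lower in them, to 122 to 518 CPM against 1009 to 1464 CPM. The part of those cells in the pattern was not tested. The primary tumours kept the pattern in part: tumours 4 and 6 held 4.17 and 5.65 CPM of Pax3 with 3 and 1 counts of Myod1, tumour 5 held 0.206 and 80.8 CPM, tumour 1 held 1.58 CPM of Pax3 beside 9.75 CPM of Myod1, and tumours 2 and 3 were low in Pax3 (1 and 0 counts) with 2.05 and 2.31 CPM of Myod1. The level of 5 CPM was chosen after the values were seen, and the pattern is given with no test.

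**Figure D4:**
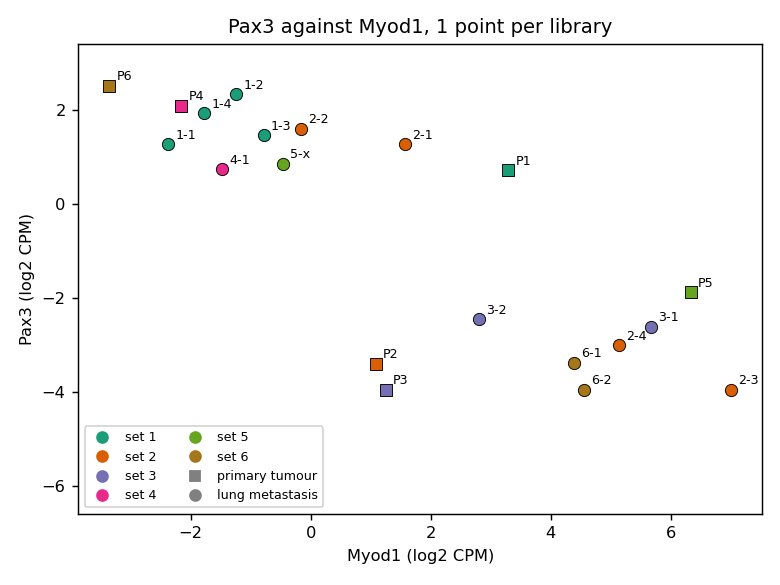
Log2 CPM of Pax3 against log2 CPM of Myod1 (prior count 2), 1 labelled point per library, squares for primary tumours and circles for metastases, coloured by matched set. The 6 metastases above 5 CPM of Myod1 lie at the lower right and the 8 others at the upper left.

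The difference of metastases from their primary tumour varied between sets for Myf5. The set by group interaction over sets 1, 2, 3 and 6 gave an adjusted p of 0.0159 for Myf5 (edgeR), and 1 of the 10 members passed, against 1.46% of 18898 genes tested. The log2 difference of Myf5 was 1.17 in set 1, 8.01 in set 2, 7.52 in set 3 and 8.25 in set 6, higher in all 4 sets. Each set has only 1 primary tumour, so the spread in this test comes from metastases alone. Myf5 did not pass without set 6 (adjusted p = 0.827), nor without metastasis 6-1 (0.0567) or 6-2 (0.0575). Without metastasis 3-1 Myh3, Chrng and Myh8 passed as well (0.0376, 0.0426 and 0.0411), with 18.8% of all genes, and without 2-3 Chrng did (0.0468), with 2.52%. These alternatives were added after seeing the data. At an unadjusted p under 0.05 there were 9 members and 18.8% of all genes, and DESeq2, also added later, called 9 members and 14.5% of all genes. Myh3 (adjusted p = 0.0915), Chrng (0.0949), Myh8 (0.103), Myod1 (0.117), Pax7 (0.121) and Myog (0.132) did not pass by edgeR, although Myod1, Myog, Chrng, Myh3 and Myh8 were lower in the metastases of set 1 and higher on average in those of sets 2, 3 and 6. Mef2c had an adjusted p of 0.775.

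The genes around the members were read from lists of the pathway. Of 18 satellite cell and progenitor surface genes 0 rose and 1 fell, with a median log2 fold change of 0.81. Chodl fell by 3.65 (adjusted p = 0.0314), while Sdc4, a syndecan of satellite cells (0.84, adjusted p = 0.0510), and Cd34 (-1.41, adjusted p = 0.0594) did not pass. Of 23 upstream and partner transcription factors tested, 0 rose and 1 fell (median 0.31): the homeobox gene Meox2, which fell by 3.03 (adjusted p = 0.0168), with Dach1 at 1.06 (0.108) and Mef2d at 0.43 (0.190). Of 17 inhibitors of the helix-loop-helix factors 1 rose and 5 fell (median 0.37). Twist2 fell by 2.20 (adjusted p = 0.00141), Snai2 by 1.61 (0.00323) and Mstn, the secreted inhibitor of muscle growth, by 3.45 (0.0154), and so did Hdac9 (0.92 lower) and Zeb1 (0.50 lower). Id2, which binds the E-protein partners of the factors, rose by 1.08 (adjusted p = 0.0257). In the edgeR fit at equal Ckm, Mstn (-0.12, adjusted p = 0.983), Chodl (-1.04, 0.714) and Meox2 (-2.79, 0.0777) did not pass. Twist2, Snai2, Hdac9 and Zeb1 were still called lower there, and Id2 higher.

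Of 20 fusion and early differentiation genes 0 rose and 0 fell by edgeR (median -0.08), with 2 lower at an unadjusted p under 0.05, 1 lower by DESeq2 and 0 by limma voom. The 3 of smallest p were genes of the sarcomere, the giant proteins Neb (-3.93, adjusted p = 0.0981) and Ttn (-2.50, 0.230) and the actin Acta1 (-4.38, 0.126). Of 10 acetylcholine receptor and synapse genes 1 rose and 0 fell (median 0.84). The receptor kinase Musk rose by 1.62 (adjusted p = 0.0352), and Chrnb1 (0.84, 0.186) and Rapsn (1.71, 0.215) did not pass. In the mature list 0 rose and 13 of 22 fell (median -4.37), led by Tmod4 (-4.07, adjusted p = 0.000647), Pvalb (-7.39, 0.000942) and Mybpc2 (-5.25, 0.00437). At equal Ckm, 8 of the 18 satellite cell genes rose and 1 fell, 7 of the 23 transcription factors rose and 2 fell, 5 of the 17 inhibitors rose and 4 fell, 2 of the 20 fusion genes (Des and Actc1) and 6 of the 10 synapse genes rose, and 1 of 21 mature genes (Tmod4) fell. Beside the background of 15.9% and 12.1% in that fit, the list medians were 1.60, 1.27, 0.60, 2.37, 2.72 and 0.56 in the same order, against 0.09 over all genes. Without sets 4 and 6, 3.06% of all genes passed in that fit, and the lists were not counted again.

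Markers of other cells were measured in the same fits. All 10 lung epithelium markers rose (median 7.25), with Nkx2-1 at 8.96 (adjusted p = 0.00186), Krt8 at 5.20 (0.00244) and Cdh1 at 3.65 (0.00323). Of 9 cardiomyocyte markers 4 rose: Tbx5 (5.83, adjusted p = 0.00689), Myl7 (7.14, 0.00945), Nppa (7.43, 0.0322) and Ryr2 (4.26, 0.0416). The sum of the list was highest in metastasis 1-1 at 296 CPM, a library with 7.11 CPM of Myh3. Next came primary tumour 5 (294 CPM) and metastases 3-1 (270 CPM) and 2-3 (177 CPM), with 897, 546 and 461 CPM of Myh3. Myl4 counts in this sum and is also in the fusion list. Of 10 smooth muscle and pericyte markers 0 rose and 0 fell by edgeR (median 0.16, 1 lower at an unadjusted p under 0.05), while DESeq2 called 3 and limma voom 1. They had Pdgfrb at -0.95 (adjusted p = 0.0843), Tagln at -2.30 (0.191) and Actg2 at 1.76 (0.237). The endothelial genes of smallest p were Vwf (1.88, 0.165), Cldn5 (1.68, 0.194) and Tek (1.07, 0.454) with a list median of 0.53, and the B cell list had Blk (2.25, 0.0515) and Ms4a1 (1.85, 0.118) with a median of 1.17. Of 6 neural crest, Schwann cell and melanocyte markers, some of which share Pax3 with muscle progenitors, 0 rose and 1 fell (median -0.46). Mitf (-0.50, 0.0564) and Pmel (0.87, 0.203) did not pass. At equal Ckm 10 lung, 7 cardiomyocyte, 3 smooth muscle, 8 endothelial, 5 B cell and 2 neural crest markers rose and 0 fell. In that fit 15.9% of all genes rose and 12.1% fell, and 3.06% passed without sets 4 and 6. Between sets of metastases, 0 genes of each of the 12 lists passed by edgeR. At an unadjusted p under 0.05 there were 17 of 22 mature muscle genes, 11 of 24 partner factors, 8 of 20 fusion genes and 7 of 10 endothelial markers, and DESeq2 called 18, 11, 9 and 7 genes of these lists, beside 29.5% of all genes at that unadjusted p and 24.5% by DESeq2.

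The genes whose log2 CPM was most like each member were found among 14853 genes, by Pearson r. The libraries share source tumours and tissue make-up, so these values describe likeness across libraries and carry no test. Over the 14 metastases, Myod1 was most like Mymx (r = 0.980), Chrng (0.975) and Ryr1 (0.971), and Myog was most like Mymk (0.987), Ryr1 (0.979) and Mybph (0.976). Mymk and Mymx encode the membrane proteins of myoblast fusion. Chrng was most like Myod1, Mymx (0.974) and Cx3cl1 (0.971), Myh3 most like Myom3 (0.992), Cacna1s (0.987) and Myh8 (0.983), and Myh8 most like Myh3, Sox8 (0.974) and Myom3 (0.971). These 5 members thus had fusion genes, sarcomere genes or each other among their nearest.

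The other 5 members had different neighbours over the metastases. Myf5 was most like Pank1 (0.962) and Cbr4 (0.956), Myf6 most like Drp2 (0.934), Dpyd (0.932) and Uox (0.930), and Pax7 most like Usp29 (0.901), Paqr5 (0.899) and Ep400 (0.891). Pax3 was most like Mmp3 (0.989), Acpp (0.980) and Efemp1 (0.979), and Mef2c most like Pkia (0.960), Txlnb (0.938) and Sorbs2 (0.935). Over all 20 libraries the nearest gene was Myog for Myod1 (0.965), Mymk for Myog (0.977), Mymx for Chrng (0.965), Myh8 for Myh3 (0.979) and Txlnb for Mef2c (0.944). It was Popdc3 for Myf5 (0.938), Synpo2 for Myf6 (0.928), Zfp783 for Pax7 (0.864) and Il33 for Pax3 (0.903). Over the metastases Ckm ranked 310 in likeness to Myh3 (r = 0.818), 703 to Myog (0.764) and 1951 to Myod1 (0.591), and 3528 to Myf5 (0.320).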

How the data were processed

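Total RNA of 6 primary tumours and 14 lung metastases was made into stranded libraries after ribosomal RNA depletion, per the labels' protocols. Per the submitters' processing notes, Trimmomatic 0.36, STAR (version string given as 5.5.4b), HTSeq and the mm10 build were used; the sources used here give neither the annotation release nor the strand setting. The authors deposited raw read counts, whole numbers for 51826 genes in 20 libraries of 20603620 to 36824370 counts. Identifiers were matched to GENCODE symbols (51633 matched, 47648 in the same version), and those without a symbol held 0.017% of counts.

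Low genes were left out with filterByExpr (minimum count 10) and libraries scaled by TMM (factors 0.712 to 1.10). Metastases were compared with primary tumours by the robust quasi-likelihood test of edgeR 4.0.16 in R 4.3.3, with the matched set as a block, since titles and design text pair the samples. As a check, deviations of primary tumours and their own metastases had a mean correlation of 0.0825 over 1000 genes (-0.18 to 0.35 by set). The same fit was run with centred Ckm log2 CPM added, sets were compared among metastases by an F test, and the set by group interaction was tested. P-values were Benjamini-Hochberg adjusted over all genes, with a threshold of 0.05. DESeq2 1.42.0 and limma 3.58.1 were alternatives, with other scalings, filters, covariates and left-out samples. Log2 CPM used a prior count of 2, and levels per length used exon unions of GENCODE M21. The scripts were tested on simulated data.

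The members, the 12 lists (170 genes) and the tests were chosen with earlier results of these data known. Named genes were the members and Ckm, the 3 genes of smallest p of each list with every called gene where a list had 5 or fewer, and the 3 genes most like each member. Some genes this rule names are not reported here. Metastases of 1 set may share an animal, which the block does not remove.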

Additional observations from a re-analysis of the deposited data

Results flagged for a closer look

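Across the 4 sets with at least 2 metastases, the difference of Myf5 from the primary tumour varied between sets by a test of the difference itself (edgeR set by group interaction, adjusted p = 0.0159), with values of 1.17, 8.01, 7.52 and 8.25 log2 CPM in sets 1, 2, 3 and 6. All 4 differences were above 0, and the call ended without set 6. Each set has only 1 primary tumour, so the test holds no spread between primary tumours. Primary tumours 1, 2, 3 and 6 held 478, 7, 17 and 3 counts of Myf5, so the size of the set 6 difference depends on the prior count.

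For each member and Ckm, a library far from its neighbours was sought among the primary tumours and among the metastases of set 1 and of set 2. Of these 33 groups of 4 or 6 libraries 3 held one, where chance gives about 1 in 20. Metastasis 2-3 had 4.70 log2 CPM of Myf6 (25.9 CPM), the highest of the 4 metastases of set 2, where the other 3 held 5.22 to 6.22 CPM. Primary tumour 5 had 5.68 log2 CPM of Pax7 (51.3 CPM), the highest of the 6 primary tumours, where no other held more than 0.454 CPM. Metastasis 1-1 had 5.95 log2 CPM of Mef2c (62.0 CPM), the highest of the 4 metastases of set 1, where the other 3 held 33.2 to 35.5 CPM. Metastasis 1-1 also had the highest sums of lung epithelium (13417 CPM), endothelial (2731 CPM), cardiomyocyte (296 CPM) and B cell (178 CPM) markers of all metastases, and the part of those cells in its Mef2c was not tested.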

How the results depend on the processing

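Values of single members and of Ckm were compared under other settings. For metastases against primary tumours 237 of 297, and at equal Ckm 79 of 90, kept their direction and their side of the threshold. Between sets 166 of 187, and in the interaction 161 of 176, kept their side of the threshold, since those F tests have no direction. The cause of the changes below was not tested.

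Metastases against primary tumours gave 2543 genes and 1 member. The counts were 4171 and 2 by DESeq2, and 360 and 0 with each set's metastases summed, a fit that held fewer samples. They were 5174 genes with the mature muscle index and 977 genes and 0 members with the lung epithelium index as covariate. With no replicate block for the pairing they were 2484 and 2, and leaving out 1 set or 1 metastasis gave 999 (without set 1) to 3598 genes and 0 to 1 members, with 1089 genes without set 2 and 1368 without set 6. Log2 fold changes that reversed with no replicate block were Myod1 0.30, Myog 0.056, Myf5 -0.90, Pax3 -0.25, Myh8 0.58 and Chrng 0.96. By limma voom they were Myod1 0.73, Myh3 0.30, Myh8 0.85 and Chrng 2.17, and with summed metastases Myod1 1.83, Myog 1.81, Myf6 0.061, Pax7 0.17, Myh3 3.05, Myh8 2.47 and Chrng 4.40. With the muscle index they were Myod1 3.37, Myog 3.47, Myf6 1.81, Pax7 2.54, Pax3 -2.34, Myh3 3.21, Myh8 3.04, Chrng 5.10 and Ckm 0.24. Ckm is 1 of the genes in that index, so its own value there is adjusted in part for itself and tests nothing. With the lung index they were Myod1 2.54, Myog 1.91, Myf6 1.12, Pax7 0.076, Pax3 -4.63, Myh3 0.54, Myh8 1.48 and Chrng 3.47. Leaving out 1 set or 1 metastasis gave -2.49 to 3.32 for Myod1, -3.86 to 3.64 for Myog, -0.60 to 0.34 for Myf6, -1.46 to 1.10 for Pax7, -0.62 to 1.95 for Pax3, -3.76 to 4.71 for Myh3, -3.50 to 4.34 for Myh8 and -2.02 to 6.51 for Chrng. Without sets 4 and 6 together, 8 of these values lay outside those ranges: Myod1 -3.22, Myog -4.44, Myf6 -0.95, Pax7 -1.50, Pax3 2.52, Myh3 -4.71, Myh8 -4.33 and Chrng -2.54.

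At equal Ckm 5165 genes and 0 members passed. Without sets 4 and 6 the count was 576 genes, and leaving out 1 set gave 1468 (without set 6) to 6050 genes and 0 to 1 members. The count of members was 2 with no replicate block and 1 with the muscle index. Myf5 (-0.53) and Pax7 (-0.25) reversed with no replicate block, and Pax3 without sets 4 and 6 (1.62). Leaving out 1 set gave -2.66 to 0.085 for Pax3 and -0.98 to 0.032 for Mef2c.

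Between sets 64 genes and 0 members passed, with 4890 and 10 by DESeq2, 164 genes without the filter on low counts, 2404 and 4 with the lung index, 0 genes with the muscle index, and 0 to 5602 genes (most without 3-1) and 0 to 5 members without 1 metastasis. The interaction gave 276 genes and 1 member. It gave 2733 and 9 by DESeq2, 0 and 0 without set 6, and 19 (without 6-2) to 3511 genes (without 3-1) and 0 to 4 members without 1 metastasis. Sets 4 and 5 have 1 metastasis each and primary tumours 1 library a set, and members at 3 or fewer counts are below what this depth can separate from 0.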
